A study of Mus musculus with 12 samples.

Results

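The 10 genes described here encode parts of the fibroblast growth factor (FGF) pathway and of the feedback that limits it: the ligand Fgf4, the FGF carrier Fgfbp1, the phosphatases Dusp9 and Dusp6, the inhibitors Spry2, Spry4 and Spred1, and the transcription factors Etv4, Etv5 and Egr1. They were taken by gene name from the array annotation, each through its brightest probe set over 12 arrays, and all 10 of 10 were found among 19938 genes with a probe set of their own. They were measured in 4 lines of induced pluripotent stem (iPS) cells, a reprogrammed counterpart of embryonic stem cells. All were made with 3 factors from C57BL/6J mouse embryonic fibroblasts and grew in embryonic stem cell medium. The sources used here do not name the factors or their delivery. LiPS-45 and LiPS-57 were able, and LiPS-47 and LiPS-50 unable, to form animals by tetraploid complementation, in which a host embryo made tetraploid leaves the fetus to the injected cells. Each line had 3 cultures with 1 array each. Values are log2(intensity + 1) of a probe set and differences are between such values, so the change of dim genes is understated. Levels are compared between lines and not between genes, because probe sets differ in brightness.

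In embryonic stem cells FGF4 is secreted by the cells themselves, binds FGF receptors and activates RAS, RAF, MEK and the MAP kinase ERK. ERK signalling prepares the cells to leave the naive state, and it also induces its own inhibitors. Sprouty and SPRED proteins act on the steps from receptor to RAF, and dual specificity phosphatases remove the activating phosphates from ERK. Etv4, Etv5 and Egr1 are transcription factor genes whose RNA usually follows ERK activity.

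The genes did not move as a block. Against LiPS-50, 2 of 10 genes were lower in every other line, Dusp9 by 2.09- to 2.36-fold and Fgf4 by 1.22- to 1.26-fold. Fgfbp1 was higher in every other line by 3.67- to 4.30-fold, and Egr1 by 1.46- to 1.70-fold. Spry2 and Spry4 were higher in both competent lines than in LiPS-50. Between the 3 lines other than LiPS-50, none of the 10 genes passed the test in any pair. That count is near the share over all probe sets, which was 0.0622% to 0.266% in these pairs.

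**Figure D1:**
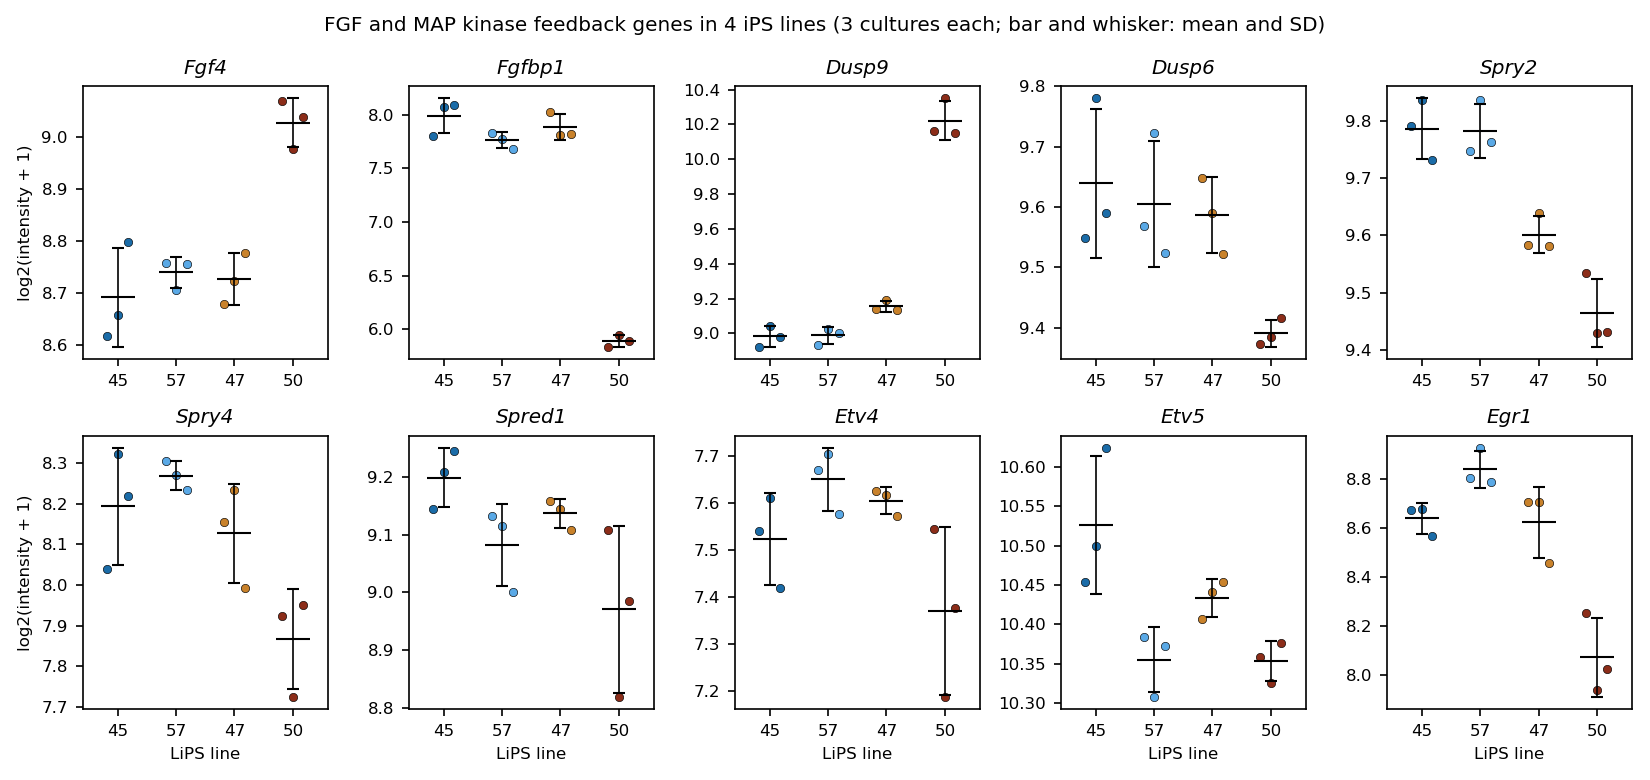
Values of the 10 genes in each of 12 cultures, with 1 panel per gene and the lines LiPS-45, LiPS-57, LiPS-47 and LiPS-50 from left to right. Points are cultures, bars and whiskers are the mean and SD of 3 cultures, and the vertical axis is log2(intensity + 1) with its own range in each panel; Fgfbp1 in LiPS-50 lies near 5.89 and in the other lines between 7.68 and 8.09.

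Counts of calls differed by the line compared. Tests were made with limma across 28939 probe sets, with Benjamini-Hochberg adjustment and a threshold of 0.05. LiPS-45 against LiPS-50 gave 5 of 10 genes higher and 2 lower, where 16.5% of all probe sets were called, 8.3% higher and 8.18% lower. LiPS-57 against LiPS-50 also gave 5 higher and 2 lower, where 15.6% of probe sets were called, 7.48% higher and 8.16% lower. LiPS-47 against LiPS-50 gave 2 higher and 2 lower, where 15.8% were called, 7.31% higher and 8.48% lower. At an unadjusted p under 0.05 the 3 comparisons gave 9, 8 and 9 of the 10 genes, against 28.5%, 26.7% and 27.1% of probe sets. These 3 comparisons share the LiPS-50 arrays. The 10 genes lie between percentiles 69.7 and 95.1 of probe set means. The shares over all probe sets include dim ones, so they are not shares at like brightness. The median difference of the 10 genes was 0.24, 0.25 and 0.18 in this order, against -2.4e-04, 1.9e-04 and 0.014 over all probe sets. By an F test for any difference among the 4 lines, 6 of 10 genes were called, against 14.9% of probe sets, and 9 of 10 had an unadjusted p under 0.05, against 27.6%. LiPS-45 against LiPS-57, LiPS-45 against LiPS-47 and LiPS-57 against LiPS-47 each gave 0 of 10, with 0.266%, 0.0622% and 0.159% of probe sets called. Of these probe sets, 0.214% were higher and 0.0518% lower in LiPS-45 than in LiPS-57 cultures, 0.0415% and 0.0207% in LiPS-45 than in LiPS-47, and 0.0138% and 0.145% in LiPS-57 than in LiPS-47. At an unadjusted p under 0.05, limma gave 2, 2 and 3 of the 10 genes in these pairs, against 8.01%, 8.93% and 6.89% of probe sets.

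**Figure D2:**
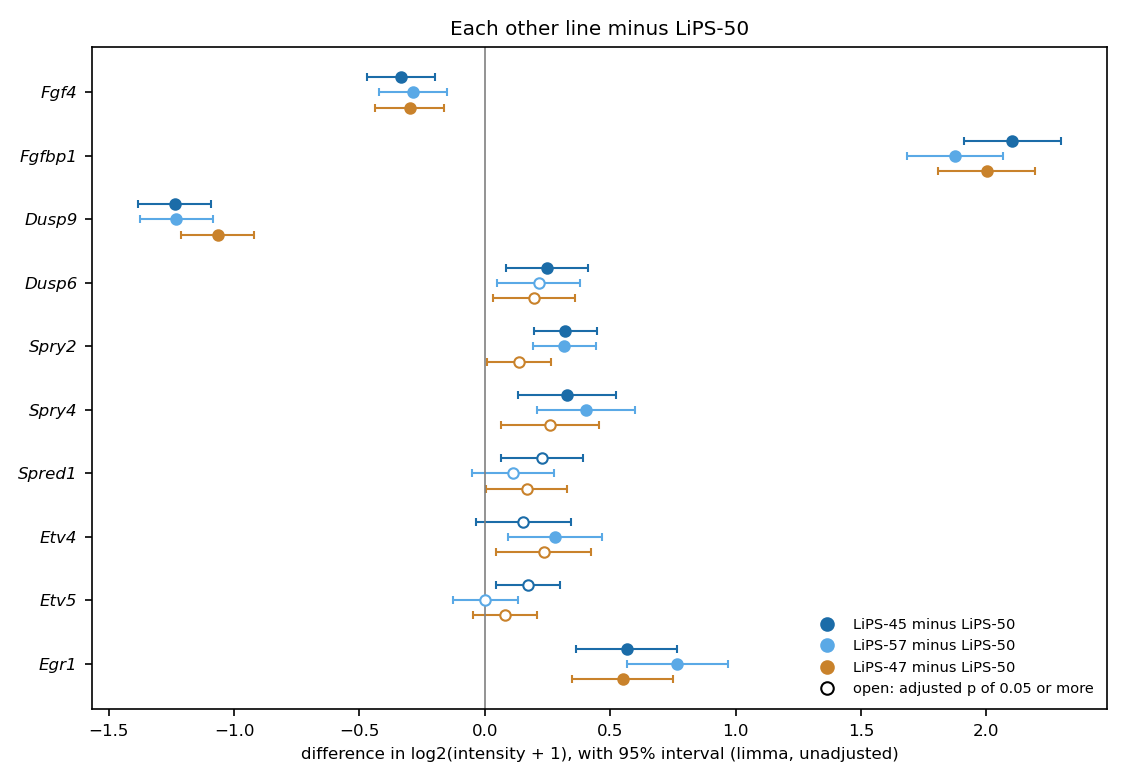
Differences of LiPS-45, LiPS-57 and LiPS-47 from LiPS-50 for the 10 genes, in log2(intensity + 1), with 95% intervals from limma that are not adjusted for the number of tests. Filled points passed the adjusted threshold; Fgf4 and Dusp9 lie left of 0, with Dusp9 between -1.24 and -1.07, and the other genes lie right of 0, with Etv5 in LiPS-57 at 0.0017.

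LiPS-50 differed from the other lines in markers of several cell types. Over 16 measured pluripotency markers the summed intensity ranged from 23430 to 24312 in LiPS-45, from 24196 to 24630 in LiPS-57, from 23306 to 23898 in LiPS-47 and from 23672 to 24288 in LiPS-50. These sums are carried by the brightest probe sets. The median log2 value of the list was 9.31 to 9.37 in LiPS-50 and 9.04 to 9.25 in the other lines. Single markers called higher numbered 3, 4 and 1, and lower 3, 3 and 4, in LiPS-45, LiPS-57 and LiPS-47 against LiPS-50. Over all probe sets 8.3%, 7.48% and 7.31% were called higher and 8.18%, 8.16% and 8.48% lower in these lines. Tbx3 was 1.54-, 1.53- and 1.65-fold and Fbxo15 1.45-, 1.21- and 1.47-fold lower. Tdgf1 went the other way, with means of 11.96, 11.997 and 11.948 in these lines and 11.728 in LiPS-50. Of 12 trophectoderm markers, 2, 1 and 4 were higher and 4, 4 and 4 lower, with Eomes 2.93-, 2.43- and 2.47-fold higher and Krt7 2.07-, 2.06- and 1.77-fold lower. These markers also differed among the other lines: 3 were called lower in LiPS-57 than in LiPS-47, where 0.145% of all probe sets were. Their summed intensity was 4367 to 5062 in LiPS-47, against 3660 to 3770 in LiPS-45, 2807 to 3486 in LiPS-57 and 3213 to 3473 in LiPS-50. It is carried by the keratin genes Krt8 and Krt18, with mean intensities of 2242 and 1041 in LiPS-47. The median log2 value of the list was instead highest in LiPS-50, at 6.95 to 7.15. It was 6.61 to 6.66 in LiPS-47, 6.39 to 6.49 in LiPS-45 and 6.43 to 6.56 in LiPS-57. Of 15 primitive endoderm markers, 2, 1 and 1 were higher and 5, 5 and 4 lower, with Foxa2 2.43-, 1.83- and 2.07-fold higher. Pdgfra, Dab2 and Col4a1 went the other way. Dab2 had means of 7.39, 7.26 and 7.04 in these lines and 7.81 in LiPS-50. For Col4a1 they were 8.24, 8.11 and 8.12, against 8.72. The summed intensity of the list was 2942 to 3495 in LiPS-50 and 2388 to 2847 in the other lines. Its median log2 value was instead lowest in LiPS-50, at 5.91 to 6.14, against 6.198 to 6.501 elsewhere. Fibroblast and feeder cell markers were nearly all lower. Of 25 measured ones, 24, 23 and 24 were called lower in LiPS-45, LiPS-57 and LiPS-47 than in LiPS-50, and 0 were called higher. Their summed intensity was 14102 to 17161 in LiPS-45, 14423 to 15656 in LiPS-57 cultures, 12025 to 15312 in LiPS-47 and 21107 to 24023 in LiPS-50. Not one of these markers was at 0, but no intensity on these arrays was, the lowest being 3.06. This therefore does not show that their RNA was present. The part of these cell types in the differences from LiPS-50 given here was not tested. In such bulk RNA, fewer cells of a type and less RNA per cell cannot be told apart.

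For the 10 genes, 6 have a promoter window from RefSeq (assembly GRCm38.p6), of 250 bases before and 50 after an annotated start. Those of Fgf4, Fgfbp1 and Spry2 are shown because these genes differed between lines in opposite directions: Fgf4 was lower, and Fgfbp1 and Spry2 higher, in the competent lines than in LiPS-50. Each window is written in the direction of the gene. Capitals mark matches on either strand to CCGGAA (a core of ETS factor sites, the family of Etv4 and Etv5), TGANTCA (AP-1), TGACGTCA (CRE), the CArG box bound by SRF, TATAAA or GGGCGG (GC box). The windows lie at chr7:144861136-144861435 on the plus strand, at chr5:43981750-43982049 on the minus strand and at chr14:105896770-105897069 on the minus strand.
Fgf4: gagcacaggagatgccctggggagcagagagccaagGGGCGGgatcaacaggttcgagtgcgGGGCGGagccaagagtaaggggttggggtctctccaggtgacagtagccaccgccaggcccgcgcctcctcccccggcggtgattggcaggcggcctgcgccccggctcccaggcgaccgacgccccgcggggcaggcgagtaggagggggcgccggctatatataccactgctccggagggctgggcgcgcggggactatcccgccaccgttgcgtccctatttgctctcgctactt
Fgfbp1: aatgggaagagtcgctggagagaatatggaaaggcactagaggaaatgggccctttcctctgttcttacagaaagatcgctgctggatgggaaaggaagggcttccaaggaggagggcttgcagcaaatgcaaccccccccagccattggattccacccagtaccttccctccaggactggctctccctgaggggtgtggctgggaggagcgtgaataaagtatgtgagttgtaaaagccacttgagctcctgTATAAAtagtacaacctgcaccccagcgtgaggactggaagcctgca
Spry2: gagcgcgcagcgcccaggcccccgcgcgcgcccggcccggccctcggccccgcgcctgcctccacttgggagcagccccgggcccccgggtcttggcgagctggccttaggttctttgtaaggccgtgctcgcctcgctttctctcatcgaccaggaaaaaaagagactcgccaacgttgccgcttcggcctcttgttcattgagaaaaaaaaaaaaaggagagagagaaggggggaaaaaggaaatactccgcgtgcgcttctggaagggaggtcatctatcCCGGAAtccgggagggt

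The Fgf4 window held 2 GC boxes, and 35.7% of 32851 windows of this length held at least 1. The Fgfbp1 window held 1 TATAAA, found in 13.6% of windows, which began 4 bases after the annotated start. In the Spry2 window 1 CCGGAA began 34 bases after the start, a match found in 14.9% of windows. No window of these 6 genes held AP-1, CRE or CArG letters, which 7.81%, 1.79% and 1.63% of all windows hold. The windows of Dusp6, Spred1 and Etv5 are not printed. Dusp9, Spry4, Etv4 and Egr1 were not searched.

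Fgf4, the ligand gene, was lower in the 3 other lines than in LiPS-50. It was measured at 8.62, 8.66 and 8.80 in LiPS-45, at 8.76, 8.71 and 8.76 in LiPS-57 cultures, at 8.68, 8.72 and 8.78 in LiPS-47, and at 9.07, 8.98 and 9.04 in LiPS-50. All 3 LiPS-50 arrays lay above the other 9, whose highest value was 8.80. Against LiPS-50, LiPS-45 was lower by 1.26-fold (log2 difference -0.34, SE 0.0626, limma adjusted p = 0.00324), LiPS-57 by 1.22-fold (adjusted p = 0.00820) and LiPS-47 by 1.23-fold (adjusted p = 0.00568). The differences among LiPS-45, LiPS-57 and LiPS-47 were between -0.048 and 0.013, with adjusted p-values of 0.907 to 0.991.

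Fgfbp1 encodes a secreted protein that binds FGFs and releases them from the extracellular matrix, and it had the largest difference among the 10 genes. Its values were 7.80, 8.08 and 8.09 in LiPS-45, 7.83, 7.78 and 7.68 in LiPS-57 cultures, 8.03, 7.82 and 7.82 in LiPS-47, and 5.84, 5.94 and 5.89 in LiPS-50. The LiPS-50 cultures were thus far below the other 9 and close to each other. LiPS-45 was 4.30-fold higher than LiPS-50 (log2 difference 2.10, SE 0.0887, limma adjusted p = 2.62e-08), LiPS-57 3.67-fold (adjusted p = 9.02e-08) and LiPS-47 4.0-fold (adjusted p = 4.52e-08). On the linear scale the means were 255 ± 27.8 in LiPS-45, 216 ± 11.3 in LiPS-57 cultures, 237 ± 20.9 in LiPS-47 and 58.2 ± 2.18 in LiPS-50 (mean ± SD, n = 3 each). LiPS-45 and LiPS-57 differed by 0.23, which did not pass the adjusted threshold (adjusted p = 0.553).

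Dusp9 encodes a MAP kinase phosphatase and lies on the X chromosome. It read 8.92, 9.04 and 8.98 in LiPS-45, 8.94, 9.03 and 9.0 in LiPS-57 cultures, 9.14, 9.19 and 9.13 in LiPS-47, and 10.16, 10.35 and 10.15 in LiPS-50. All LiPS-50 cultures lay above all others, and the LiPS-47 cultures lay above every culture of the competent lines. LiPS-45 was 2.36-fold lower than LiPS-50 (log2 difference -1.24, SE 0.0667, limma adjusted p = 2.89e-07), LiPS-57 2.35-fold (adjusted p = 3.07e-07) and LiPS-47 2.09-fold (adjusted p = 1.11e-06). Against LiPS-47, LiPS-45 differed by -0.17 (adjusted p = 0.464) and LiPS-57 by -0.17 (adjusted p = 0.667), with 95% intervals of -0.32 to -0.027 and -0.31 to -0.021.

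X-linked genes moved in the same direction. Of 413 X-linked genes at or above the 40th percentile of probe set means, 88.9%, 88.1% and 86.9% were lower in LiPS-45, LiPS-57 and LiPS-47 than in LiPS-50, against 48.7%, 47.9% and 46.7% of 12507 autosomal genes. The median X-linked difference was -0.33, -0.37 and -0.38, or 1.26-, 1.30- and 1.30-fold. Dusp9 ranked 9, 7 and 14 from the lowest of these genes in the 3 comparisons. The part of an X-wide difference in the values of Dusp9 was not tested.

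Dusp6 encodes a phosphatase specific for ERK and is a common transcriptional readout of the pathway. Its values were 9.55, 9.78 and 9.59 in LiPS-45, 9.57, 9.72 and 9.52 in LiPS-57 cultures, 9.65, 9.59 and 9.52 in LiPS-47, and 9.37, 9.38 and 9.42 in LiPS-50. The 3 LiPS-50 arrays were the lowest of the 12, in the direction opposite to Dusp9. LiPS-45 was 1.19-fold higher than LiPS-50 (log2 difference 0.25, SE 0.0755, limma adjusted p = 0.0420). This call was lost with quantile normalization, with the control probe sets kept, with LiPS-45 and LiPS-50 fitted alone, and without any of 7 single cultures, among them each LiPS-50 culture (adjusted p up to 0.152 over these settings). For LiPS-57 and LiPS-47 the differences were 0.21 (adjusted p = 0.0798) and 0.20 (adjusted p = 0.109). The LiPS-57 difference was called with median centring, a pseudocount of 16 or no dim probe sets (adjusted p of 0.0401 to 0.0480).

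Spry2, an inhibitor of signalling from receptor tyrosine kinases to RAS and RAF, was higher in both competent lines than in LiPS-50. It was measured at 9.79, 9.84 and 9.73 in LiPS-45, at 9.75, 9.84 and 9.76 in LiPS-57 cultures, at 9.58, 9.64 and 9.58 in LiPS-47, and at 9.53, 9.43 and 9.43 in LiPS-50. The 6 arrays of the competent lines all lay above the 6 of the other lines, and those of LiPS-50 were the lowest. LiPS-45 and LiPS-57 were each 1.25-fold higher than LiPS-50 (log2 differences 0.32 and 0.32, SE 0.0582, limma adjusted p = 0.00269 and 0.00305). Against LiPS-47 they were 1.14- and 1.13-fold higher, at adjusted p-values of 0.341 and 0.538. LiPS-47 differed from LiPS-50 by 0.14 (95% interval 0.0096 to 0.26, adjusted p = 0.150).

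Spry4, a second Sprouty gene, stood at 8.04, 8.32 and 8.22 in LiPS-45, at 8.30, 8.27 and 8.23 in LiPS-57 cultures, at 8.16, 8.23 and 7.99 in LiPS-47, and at 7.92, 7.73 and 7.95 in LiPS-50. The LiPS-50 cultures were again below all others, the nearest being LiPS-47 replicate 3. LiPS-57 was 1.32-fold higher than LiPS-50 (log2 difference 0.40, SE 0.0899, limma adjusted p = 0.00932) and LiPS-45 1.25-fold (adjusted p = 0.0270), while LiPS-47 differed by 0.26 (adjusted p = 0.0731), which was called under 3 alternatives and without LiPS-47 replicate 3 (adjusted p of 0.0402 to 0.0496). The call for LiPS-45 was lost with these lines fitted alone and without LiPS-45 replicates 2 or 3 or LiPS-50 replicate 2 (adjusted p up to 0.105).

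Spred1, a membrane-bound inhibitor of RAS signalling related to the Sproutys, passed no test in the fit used here. Its values were 9.14, 9.21 and 9.24 in LiPS-45, 9.13, 9.11 and 9.0 in LiPS-57 cultures, 9.16, 9.14 and 9.11 in LiPS-47, and 9.11, 8.82 and 8.98 in LiPS-50. The groups overlapped, since 1 LiPS-50 array reached 9.11. Its differences from LiPS-50 were 0.23, 0.11 and 0.17 for LiPS-45, LiPS-57 and LiPS-47, with limma adjusted p-values of 0.0558, 0.391 and 0.172. For LiPS-45 it was called with arrays centred on their medians, with a pseudocount of 16, without dim probe sets and without LiPS-50 replicate 1 (adjusted p of 0.0223 to 0.0397 in these).

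Egr1, an immediate early gene, was higher in the 3 other lines than in LiPS-50. It gave 8.67, 8.68 and 8.57 in LiPS-45, 8.80, 8.93 and 8.79 in LiPS-57 cultures, 8.71, 8.71 and 8.46 in LiPS-47, and 8.25, 7.94 and 8.03 in LiPS-50. No LiPS-50 array reached the level of any other array. LiPS-57 was 1.70-fold higher than LiPS-50 (log2 difference 0.77, SE 0.0925, limma adjusted p = 1.89e-04), LiPS-45 1.48-fold (adjusted p = 0.00140) and LiPS-47 1.46-fold (adjusted p = 0.00151). LiPS-57 was the highest line, but its differences of 0.20 from LiPS-45 and 0.22 from LiPS-47 did not pass (adjusted p = 0.628 and 0.682).

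Etv4, an ETS family factor, was measured at 7.54, 7.61 and 7.42 in LiPS-45, at 7.67, 7.70 and 7.58 in LiPS-57 cultures, at 7.62, 7.62 and 7.57 in LiPS-47, and at 7.54, 7.19 and 7.38 in LiPS-50. The LiPS-50 arrays overlapped those of LiPS-45. LiPS-57 was 1.21-fold higher than LiPS-50 (limma adjusted p = 0.0462), a call that was lost without any of 10 single cultures, LiPS-50 replicates 2 and 3 among them, and with the replicate block, the control probe sets or these lines alone (adjusted p up to 0.166). For LiPS-45 and LiPS-47 the differences were 0.15 and 0.23 (adjusted p = 0.278 and 0.0926), the second of which was called with quantile normalization and without LiPS-50 replicate 1 (adjusted p = 0.0482 and 0.0252).

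Etv5, the close relative of Etv4, has 2 probe sets, which disagreed. The brighter, used by the rule, gave 10.45, 10.50 and 10.62 in LiPS-45, 10.38, 10.31 and 10.37 in LiPS-57 cultures, 10.41, 10.44 and 10.45 in LiPS-47, and 10.36, 10.33 and 10.38 in LiPS-50. LiPS-57 and LiPS-50 overlapped, and the differences from LiPS-50 of 0.17, 0.0017 and 0.080 for LiPS-45, LiPS-57 and LiPS-47 had limma adjusted p-values of 0.0687, 0.992 and 0.448. The first was called under 4 alternatives (adjusted p of 0.00240 to 0.0382), and all 3 with the mean of both probe sets. The dimmer probe set was described after its values were seen. It gave 9.51, 9.54 and 9.54 in LiPS-45, 9.49, 9.61 and 9.43 in LiPS-57 cultures, 9.46, 9.52 and 9.49 in LiPS-47, and 9.18, 9.07 and 9.02 in LiPS-50, with no overlap between LiPS-50 and the rest. By it, LiPS-45 was 1.36-fold higher than LiPS-50 (log2 difference 0.44, SE 0.0641, limma adjusted p = 6.62e-04), LiPS-57 1.34-fold (adjusted p = 0.00102) and LiPS-47 1.32-fold (adjusted p = 0.00116). Etv5 lies on chromosome 16, as do 19 of the 20 annotated genes nearest to the dimmer probe set in the numbering of the array. For the brighter probe set 20 of 20 such neighbours lie on chromosome 10, although the annotation lists the same 3 accessions for both. Which of them reads the Etv5 transcript was not tested.

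**Figure D3:**
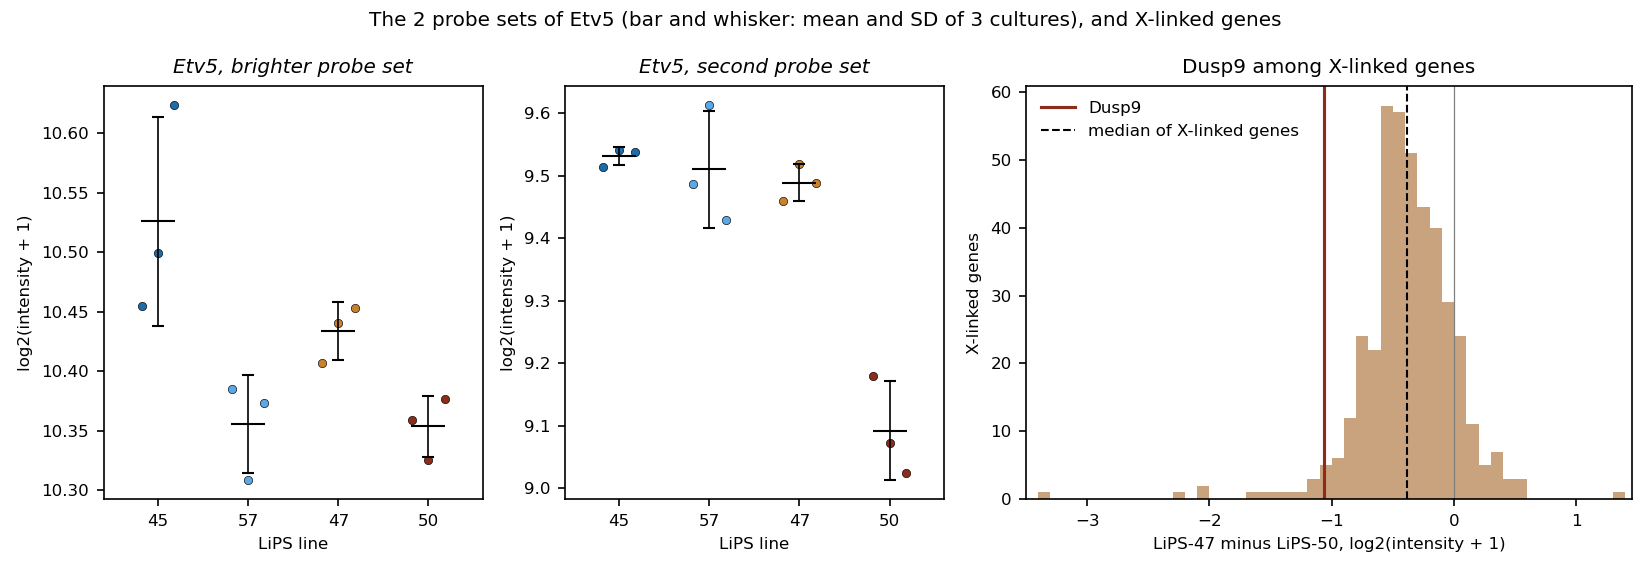
Left and middle, values of the brighter and the dimmer probe set of Etv5 in 12 cultures (bars and whiskers, mean and SD of 3 cultures, log2(intensity + 1)). Right, differences of 413 X-linked genes between LiPS-47 and LiPS-50, with Dusp9 at -1.07 and the median at -0.38. The dimmer Etv5 probe set lies between 9.43 and 9.61 in the other lines and between 9.02 and 9.18 in LiPS-50.

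The LiPS-50 cultures were not alike in all genes. LiPS-50 replicate 2 had the lowest value of the 3 for Spry2, Spry4, Spred1, Etv4, Egr1, Fgf4 and the brighter Etv5 probe set, and the highest for Dusp9 and Fgfbp1. Its summed intensity of fibroblast markers, 21107, was the lowest of that line, against 24023 in replicate 1 and 23596 in replicate 3. For 5 of 10 genes all LiPS-50 arrays lay below the other 9, a pattern of 9.54% of probe sets, and for 2 of 10 they lay above them (8.81% of probe sets).

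Since competence belongs to a line and not to a culture, its fit took lines as random blocks. The correlation within lines, 0.183, was shared by all probe sets. Where lines differ more than it implies, as LiPS-47 (mean 9.15) and LiPS-50 (10.22) did for Dusp9, the SE and unadjusted p are too small. The test called 0 of 10 genes and 0 of 28939 probe sets (0%), while 5 of 10 genes had an unadjusted p under 0.05, as did 7.69% of probe sets. Spry2 was higher in the competent lines by 0.25 (SE 0.0584, limma unadjusted p = 7.17e-04, adjusted p = 0.648). All 6 competent arrays were above the 6 others for this gene, as for 0.48% of probe sets. Dusp9 was lower in them by 1.63-fold (log2 difference -0.70, SE 0.208, adjusted p = 0.648), again without overlap, a pattern of 0.321% of probe sets. Without the LiPS-50 arrays these differences were 0.18 for Spry2 (adjusted p = 0.206) and -0.17 for Dusp9 (adjusted p = 0.226). The size of the Dusp9 difference thus depended on LiPS-50. The direction of both could not change without LiPS-50, because the competent arrays did not overlap the others. For Fgfbp1 and Etv4 the sign changed: without the LiPS-50 arrays their differences were -0.011 (adjusted p = 0.979) and -0.018 (adjusted p = 0.945). With all 12 arrays, Fgfbp1 and Egr1 differed by 0.99 and 0.39 (both adjusted p = 0.648), and Fgf4 by -0.16 (adjusted p = 0.656). Spry4 differed by 0.23 (adjusted p = 0.648) and Dusp6 by 0.13 (adjusted p = 0.682). Without the LiPS-50 arrays the differences were smaller, 0.12 for Egr1, -0.011 for Fgf4, 0.10 for Spry4 and 0.036 for Dusp6. For Spred1, Etv4 and Etv5 the differences with all 12 arrays were 0.087, 0.10 and 0.047, with adjusted p-values of 0.774, 0.780 and 0.862.

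Other genes of the FGF family were mixed. Of 21 further FGF genes, 5 were called higher in each of the 3 other lines than in LiPS-50, and 2, 1 and 1 lower in LiPS-45, LiPS-57 and LiPS-47. Over all probe sets 8.3%, 7.48% and 7.31% were called higher and 8.18%, 8.16% and 8.48% lower in these lines. The lower counts are near that share. The median difference of the list was -0.068, -0.070 and -0.040 in this order. Fgf8, an FGF of the early embryo and of gastrulation, averaged 8.33 ± 0.109 in LiPS-45, 8.10 ± 0.196 in LiPS-57 cultures, 8.44 ± 0.0626 in LiPS-47 and 7.23 ± 0.141 in LiPS-50 (mean ± SD, n = 3 each). Fgf15 was 1.56-, 1.77- and 1.44-fold and Fgf17 1.54-, 1.44- and 1.36-fold higher in these lines than in LiPS-50. Fgf5, made by the primed epiblast, was 1.95-, 1.81- and 1.80-fold higher, at limma adjusted p-values of 3.21e-05, 1.02e-04 and 9.41e-05. Fgf7, typically made by fibroblasts and other mesenchymal cells, was 1.84-, 1.85- and 2.41-fold lower, with fibroblast markers summing to 21107 or more in LiPS-50 and to 17161 or less elsewhere. Their part in it was not tested. Fgf4 was thus in the direction opposite to Fgf5, Fgf8, Fgf15 and Fgf17. The summed intensity of 11 primed epiblast markers, Fgf5 among them, was 5834 to 6201 in LiPS-45, 5586 to 6093 in LiPS-57 cultures, 5754 to 6073 in LiPS-47 and 4040 to 4154 in LiPS-50, and its part in the ligand values was not tested.

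Of 19 receptor and co-receptor genes, 0 were called higher in any other line than in LiPS-50, and 5, 5 and 6 were lower in LiPS-45, LiPS-57 and LiPS-47, against 8.3%, 7.48% and 7.31% of all probe sets higher and 8.18%, 8.16% and 8.48% lower. A count of 0 of 19 higher is not far from that share. Fgfr2, a receptor of FGFs, averaged 7.34 ± 0.0363 in LiPS-45, 7.33 ± 0.0672 in LiPS-57 cultures, 7.41 ± 0.0357 in LiPS-47 and 7.94 ± 0.0366 in LiPS-50 (mean ± SD, n = 3 each), 1.51-, 1.53- and 1.44-fold lower than in LiPS-50. The heparan sulphate proteoglycans Sdc4 and Sdc3 and the membrane protein Flrt2 were lower as well, Flrt2 by 1.70-, 1.76- and 1.89-fold (limma adjusted p = 0.00106, 7.17e-04 and 2.83e-04). Fgfr1, a main FGF receptor of pluripotent cells named here for that role, differed from LiPS-50 by -0.071, 0.051 and -0.047 (adjusted p = 0.608 to 0.766). The fibroblast markers were lower in the same lines, with 25 genes of median difference -0.69, -0.67 and -0.83, and their part in the receptor list was not tested. The list also holds X-linked genes. The median difference over X-linked genes was -0.33, -0.37 and -0.38, and the part of an X-wide difference in this list was not tested.

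Of 15 measured adaptor and cascade genes, 1, 2 and 1 were higher and 3, 3 and 2 lower in LiPS-45, LiPS-57 and LiPS-47 than in LiPS-50. With 8.3%, 7.48% and 7.31% of all probe sets higher and 8.18%, 8.16% and 8.48% lower, the higher counts are near the share over all probe sets. Araf, a RAF kinase gene on the X chromosome, was lower by 1.36-, 1.47- and 1.51-fold (limma adjusted p = 2.52e-04, 4.79e-05 and 2.43e-05). Rps6ka3, an ERK-activated kinase gene that is also X-linked, was lower by 1.24-, 1.30- and 1.17-fold. The medians over X-linked genes were 1.26-, 1.30- and 1.30-fold lower. Nras, a RAS gene, was 1.31-, 1.26- and 1.25-fold higher. The adaptor gene Gab1 was called higher in LiPS-57, by 1.20-fold (adjusted p = 0.0149).

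Among 21 other feedback inhibitors, 3, 4 and 4 were higher and 2, 3 and 3 lower in LiPS-45, LiPS-57 and LiPS-47 than in LiPS-50. The shares over all probe sets were 8.3%, 7.48% and 7.31% higher and 8.18%, 8.16% and 8.48% lower, and the lower counts are close to them. Il17rd, which encodes the membrane inhibitor SEF, averaged 8.68 ± 0.0538 in LiPS-45, 8.47 ± 0.0549 in LiPS-57 cultures, 8.63 ± 0.103 in LiPS-47 and 7.78 ± 0.0873 in LiPS-50 (mean ± SD, n = 3 each). It was 1.86-, 1.61- and 1.80-fold higher than in LiPS-50 (limma adjusted p = 5.27e-06, 6.16e-05 and 9.07e-06). Sulf1 and Sulf2, which trim sulphate groups from the heparan chains that FGFs bind, went in opposite directions, Sulf1 1.30-, 1.23- and 1.19-fold higher and Sulf2 1.28-, 1.20- and 1.27-fold lower. Errfi1, a feedback inhibitor of the EGF receptor, was lower by 1.33-, 1.45- and 1.37-fold.

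Of 24 other ERK-responsive factors and immediate early genes, 8, 9 and 7 were higher and 4, 4 and 5 lower than in LiPS-50, where 16.5%, 15.6% and 15.8% of all probe sets were called in either direction. Their median difference was -0.086, -0.034 and 0.055. Etv1, the third gene of the Etv4 and Etv5 group, averaged 7.73 ± 0.0249 in LiPS-45, 7.76 ± 0.112 in LiPS-57 cultures, 7.70 ± 0.0724 in LiPS-47 and 7.12 ± 0.103 in LiPS-50 (mean ± SD, n = 3 each). It was 1.52-, 1.55- and 1.49-fold higher in the other lines (limma adjusted p = 1.89e-04, 1.53e-04 and 2.77e-04). Fosb, an AP-1 subunit, was 1.44-, 1.57- and 1.73-fold higher and the stress-responsive factor Atf3 1.39-, 1.28- and 1.61-fold. Elk1, an X-linked ETS factor that ERK phosphorylates, was lower by 1.24-, 1.28- and 1.38-fold. Across all 5 lists 0 genes were called between LiPS-45, LiPS-57 and LiPS-47. Over all probe sets 0.266% were called in LiPS-45 against LiPS-57, 0.0622% in LiPS-45 against LiPS-47 and 0.159% in LiPS-57 against LiPS-47. A count of 0 is near these shares. For competence 0 list genes were called, as were 0 of 28939 probe sets.

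**Figure D4:**
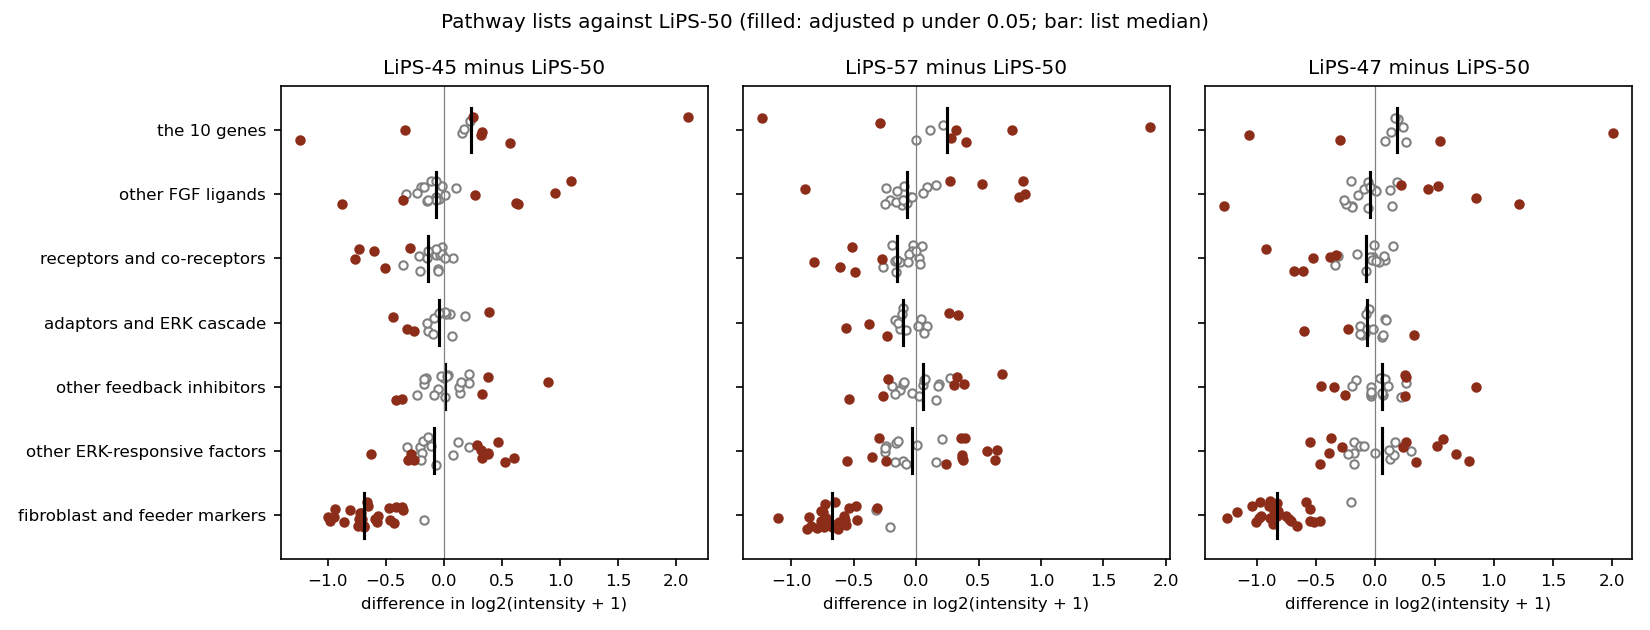
Differences of each gene from LiPS-50 in log2(intensity + 1), for LiPS-45, LiPS-57 and LiPS-47 from left to right, with the 10 genes at the top, 5 pathway lists under them and fibroblast and feeder markers at the bottom. Filled points passed the adjusted threshold and bars are list medians; the marker list has medians of -0.69, -0.67 and -0.83.

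For the 6 genes called by the F test, the genes nearest in pattern were sought among 3036 genes outside the lists that were also called, by the root mean square distance of centred log2 values over 12 arrays. Nearest to Dusp9 were Mpp1 (distance 0.139) and AU015836 (0.141), both on the X chromosome. Trh (0.147) and Cyp26a1 (0.227) were nearest to Fgfbp1, and Amt (0.0516) and Dppa2 (0.0516) to Fgf4. Egr1 was nearest to Cxxc1 (0.0982) and Kit (0.0993), Spry2 to Eif4g3 (0.0588) and Pprc1 (0.0635), and Spry4 to Wdr4 (0.0700) and Mdc1 (0.0769). Distances are not comparable between genes of unequal spread, which was 0.91 for Fgfbp1, 0.54 for Dusp9 and 0.15 for Fgf4 and Spry2 (SD over 12 arrays).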

How the data were processed

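The authors deposited 1 table of probe set intensity values on a linear scale for 12 arrays. GCOS 1.4 is named in the submitters' processing notes, and background correction, summarisation and normalization are not stated there. Array quartiles of log2 values differed by at most 0.0954, so the scale was kept. Values were turned into log2(intensity + 1). Of 35556 probe sets, 6617 numbered below the lowest annotated one were taken as controls and left out. The other 28939 were tested with limma 3.58.1 in R 4.3.3 (two-sided, Benjamini-Hochberg, threshold 0.05). Pairs of lines and the F test come from a fit of 4 line means with 8 residual degrees of freedom. Competence was fitted with the line as a random block (correlation 0.183, shared by all probe sets). Cultures are described as biological repeats, so p-values measure their spread. The number of arrays limits the precision.

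The genes, lists and comparisons were chosen with earlier results of these data known. Named are the 10 genes, up to 4 genes per list with the smallest F-test p, and the 2 nearest genes in pattern. Fgf7, Fgfr1 and the second Etv5 probe set fall outside this rule and were chosen after their values were seen. Gene symbols come from the array annotation and, by gene identifier, from a RefSeq table. No array shared over 0.607% of identical values with another.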

Additional observations from a re-analysis of the deposited data

Results flagged for a closer look

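Within the 6 arrays of the competent lines and the 6 of the others, 20 groups of values were examined for a sample far from the rest, and 1 stood out, where chance gives about 1 in 20. The lowest Spry4 value of the competent lines, 8.04 in LiPS-45 replicate 1, lay farther from its nearest neighbour, relative to the range of the 6 arrays, than Dixon's critical value allows. It is still above all LiPS-50 values.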

How the results depend on the processing

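Of 18 calls of single genes against LiPS-50, 15 kept direction and call under all 8 alternatives and without each of the 12 cultures, and 0 reversed. The exceptions are Dusp6 and Spry4 for LiPS-45 and Etv4 for LiPS-57. Called genes numbered 5 to 9 of 10 for LiPS-45, 6 to 8 for LiPS-57 and 4 to 6 for LiPS-47 against LiPS-50 over the alternatives, and 5 to 7, 6 to 7 and 4 to 5 without single cultures. The F test gave 5 to 7 over the alternatives and 4 to 6 without single cultures. For pairs of the other lines the count was 0 throughout. Replicate numbers recur across lines: deviations of same-numbered arrays from their line means correlated between -0.17 and 0.12, and 4 of 18 pairs exceeded 0.1, so the numbers were not taken as pairs. With the replicate block the counts against LiPS-50 were 7, 6 and 4, and 5 by the F test. For competence the count was 0 under the other alternatives and without each culture, but 5 (4 higher, 1 lower) when the 4 line means were compared with only the spread between cultures as error, which leaves out the spread between lines. Those were Fgfbp1, Dusp9, Spry2, Spry4 and Egr1. With the second Etv5 probe set, an alternative chosen after seeing the data, the counts against LiPS-50 were 8, 8 and 5. The number of lines, 2 against 2, limits the competence test. Of differences that were not called, 27 values over 13 of them changed sign, all at adjusted p-values of 0.815 or more. With quantile normalization these were -0.00375 for Spry2 (LiPS-45 against LiPS-57), -0.00599 for Egr1 (LiPS-45 against LiPS-47), -0.00135 for Fgf4 (LiPS-57 against LiPS-47) and -0.028 for Etv5 (LiPS-57 against LiPS-50). Without the LiPS-50 arrays the competence differences were -0.011 for Fgfbp1 and -0.018 for Etv4. Without single cultures the ranges were -0.037 to 0.023 for Dusp9, -0.036 to 0.093 for Dusp6, -0.021 to 0.032 for Spry2 and -0.14 to 0.0011 for Spry4 in LiPS-45 against LiPS-57; -0.088 to 0.0019 for Fgf4, -0.017 to 0.099 for Dusp6, -0.00064 to 0.14 for Spry4 and -0.067 to 0.059 for Egr1 in LiPS-45 against LiPS-47; -0.011 to 0.039 for Fgf4 and -0.040 to 0.059 for Dusp6 in LiPS-57 against LiPS-47; -0.013 to 0.025 for Etv5 in LiPS-57 against LiPS-50. The cause was not tested.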
